A study of Homo sapiens with 2 samples.

Results

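Endosomal sorting is the step at which membrane proteins taken into a cell are sent either to lysosomes or back to other membranes. The genes described here are those with a symbol starting in VPS, SNX or CHMP followed by a number, plus STAM and STAM2, among the skipped-exon events of an RNA-seq comparison. They held 729 of 113456 events, 461 of 67154 distinct exons and 71 of 11965 gene symbols. An event is 1 exon with 1 upstream and 1 downstream partner exon, so that an exon with several partners is listed several times.

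The study looked for exons that are prone to skipping under many kinds of perturbation, and used amiloride as one such perturbation of HEK293T, a line of human embryonic kidney cells that carries the SV40 large T antigen. The Ctrl group was 1 library of untreated cells (treatment given as None) and the Amilo group was 1 library of cells given amiloride, a potassium-sparing diuretic that blocks the epithelial sodium channel, at 300 µg/mL for 6 h. Polyadenylated RNA was sequenced, and both libraries came from 1 cell line with no replicate culture. The tables number the 2 libraries without naming them, so reads and inclusion levels per library were not used and no effect of amiloride is described. What follows is the set of exons that the table lists, with their sequence, reading frame and place in each gene. A listing says that the table holds an event, and does not say how often the exon was skipped. Whether the expression or depth of a gene sets how many of its exons and events are listed was not tested, since reads were not used.

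The ESCRT complexes act in turn on the endosome membrane. ESCRT-0 collects ubiquitin-marked cargo, ESCRT-I and ESCRT-II pass it on, ESCRT-III filaments pinch off vesicles into the lumen, and the VPS4 ATPases take the filaments apart. Retromer, retriever and the sorting nexins rescue other cargo from this fate into tubules and carriers, while the HOPS, CORVET, GARP and EARP complexes tether membranes before they fuse.

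The 71 symbols were 34 VPS, 26 SNX, 9 CHMP and 2 STAM symbols, with 253, 164, 26 and 18 exons respectively. The annotation holds 78 protein-coding genes of the rule, of which 69 were listed. The 9 without an event were CHMP1B, CHMP6, SNX15, SNX18, SNX20, SNX31, SNX33, VPS26C and VPS35L. The canonical transcript of CHMP1B has a single exon, and those of SNX18 and SNX33 have 2, so none of these 3 genes has an internal exon that could be skipped in that transcript. The retriever subunits VPS26C and VPS35L were in the table under other symbols: 4 listed exons of DSCR3 matched canonical exons of VPS26C, and 20 listed exons of C16orf62 matched canonical exons of VPS35L. These were left out by the rule and had 8 and 35 events.

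The shortest exons show how small a unit listed as skipped can be in these genes. Only 4 of the 461 exons had up to 27 bases (0.868%, beside 0.782% of all listed exons). They are shown in transcript direction on GRCh37 with 20 intron bases before and 10 after, with the exon in capitals, because the whole exon is short enough to read with both splice sites.
VPS29 exon of 12 bases (chr12:110937330-110937371, minus strand): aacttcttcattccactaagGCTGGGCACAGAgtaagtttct
CHMP1A exon of 20 bases (chr16:89720302-89720351, minus strand): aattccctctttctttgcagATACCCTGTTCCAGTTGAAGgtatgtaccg
SNX21 exon of 11 bases (chr20:44469067-44469107, plus strand): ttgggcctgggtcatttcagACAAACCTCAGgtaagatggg
SNX14 exon of 27 bases (chr6:86248546-86248602, minus strand): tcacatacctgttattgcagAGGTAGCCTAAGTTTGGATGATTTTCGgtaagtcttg
All 4 had an annotated skipping junction, and they had 3, 2, 1 and 1 events in the order shown. The VPS29 and SNX21 exons were not in the canonical transcripts. The 12 bases of VPS29, the smallest retromer subunit, make up 4 whole codons in length, and the 27 bases of SNX14, exon 16 of 29, make up 9. The 20 bases of CHMP1A exon 2 of 7 shifted the reading frame when left out. SNX21 had this exon alone in the skipped-exon table, so that none of its 2 internal canonical exons was listed.

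Exons of the endosomal genes were of ordinary size for the table. Their median length was 106 bases (quartiles 79.0 and 144), beside 114 bases (83.0 and 154) for all listed exons. Exons over 300 bases were 4 of 461 (0.868%), beside 3.19% of all. The longest was exon 4 of 5 of VPS18, a core subunit shared by HOPS and CORVET, with 1871 bases at chr15:41191342-41193212. The other 3 were a 718-base exon of VPS51, a 341-base exon of VPS54 and a 434-base exon of VPS9D1-AS1.

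**Figure D1:**
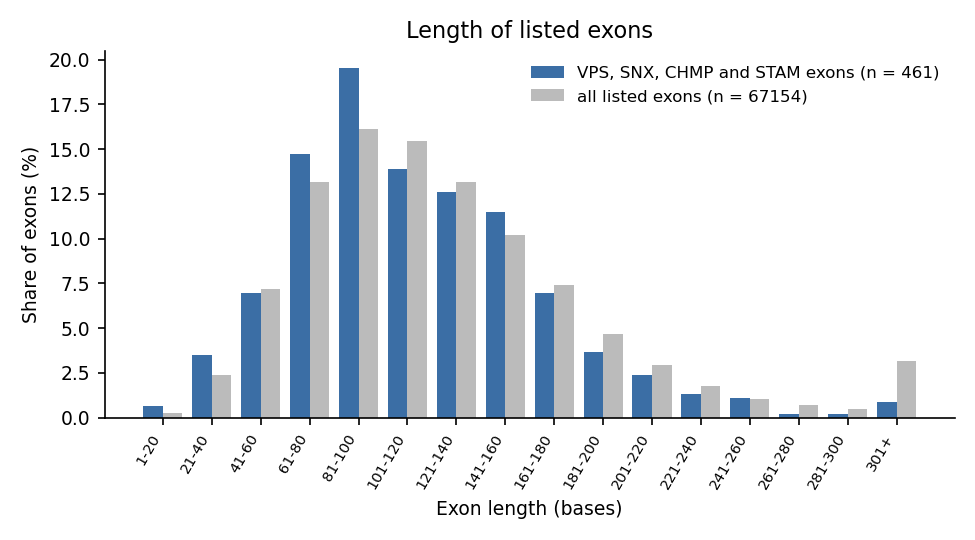
Share of exons (y axis, %) in each 20-base class of exon length (x axis, bases) for the 461 endosomal exons and for all 67154 listed exons. The class of 81 to 100 bases held 19.5% of the endosomal exons and 16.1% of all, and the class over 300 bases held 0.868% and 3.19%.

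The introns on either side were long in both sets. Measured to the nearest partner exon of each exon's events, the median upstream intron was 2477 bases beside 2200 for all exons, and the median downstream intron was 2158 beside 2003. With every event counted once, the order of the downstream medians turned, to 2612 beside 2694, while the upstream medians were 3657 and 3053. Of the 461 exons, 453 (98.3%) overlapped a coding segment of the annotation, beside 95.1% of all. An exon with exactly the same start and end was annotated for 456 exons (98.9%, beside 99.4%). The 5 others were a 222-base exon of VPS51, a 171-base exon of VPS11, an 83-base exon of VPS29, and exons of 39 and 142 bases in SNX17. A single end of such an exon can still be annotated as part of another exon.

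Splice sites were scored by how closely they match annotated human sites with GT after the exon or AG before it. The score is the sum over positions of the log2 ratio of each base's frequency to an equal share. It covers 9 bases at the 5′ splice site and 23 at the 3′ splice site. Sites with other bases in place of GT or AG were left out of the frequencies, so such a site scores low by construction. The mean 5′ score was 7.63 (SD 3.03 over 461 exons), beside 7.77 (SD 2.82) for all exons. Over exons with AG and GT alone, the mean 5′ scores were 7.89 and 7.94. The mean 3′ score was 9.25 (SD 3.38), beside 9.10 (SD 3.47). With 1 value a gene the order of the 3′ means turned, to 8.98 beside 9.04. By role, over exons with AG and GT at their ends, the mean 5′ score ran from 6.94 in ESCRT-I to 8.81 in ESCRT-0, and the mean 3′ score from 7.78 in ESCRT-I to 10.18 in ESCRT-II. The low end of the 3′ scores lay with VPS28, which had a mean of 5.49 over 8 of the 18 ESCRT-I exons. Without it ESCRT-I had a mean 3′ score of 9.61, and retromer was lowest at 8.19. The mean 5′ score of ESCRT-I without VPS28 was 6.74, so that role stayed lowest there.

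**Figure D2:**
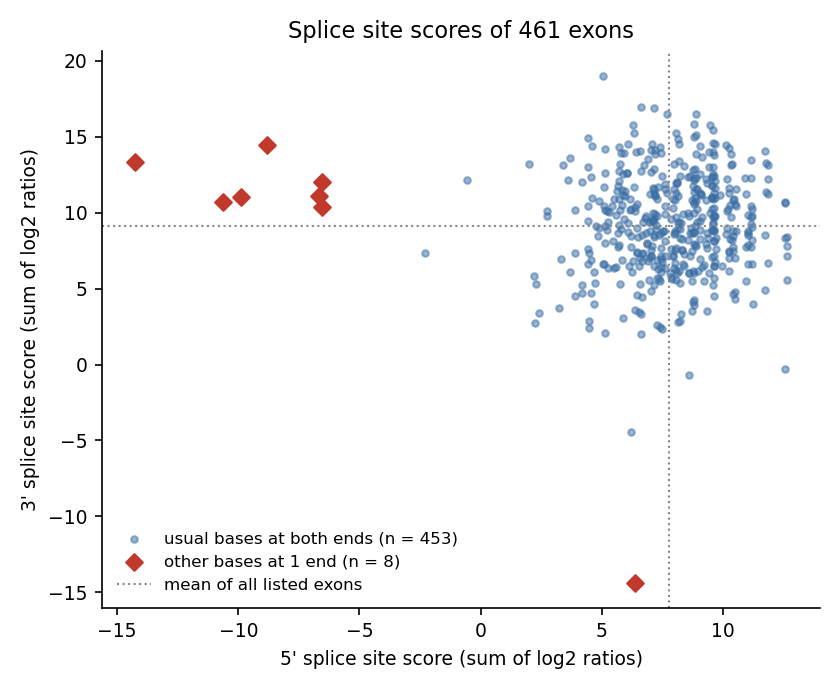
Score of the 5′ splice site (x axis) against that of the 3′ splice site (y axis), both as sums of log2 ratios, for each of the 461 exons, with dotted lines at the means of all listed exons, 7.77 and 9.10. Diamonds are the 8 exons without the usual pair of bases at 1 end, 7 of them at low 5′ scores and 1 at the lowest 3′ score. Their low scores follow from the scoring, whose frequencies left out sites without GT or AG.

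An AG before the exon and a GT after it flanked 453 of 461 exons (98.3%), beside 98.9% of all. Each of the 8 others is shown with 3 exon and 6 intron bases at the 5′ splice site, or 20 intron and 3 exon bases at the 3′ splice site, with the 2 intron bases next to the exon in capitals, since those bases are what set these exons apart. All are on GRCh37.
VPS11 exon 7 (chr11:118944107-118944115, plus strand): gagGCaagg
SNX1 exon 2 (chr15:64404881-64404889, plus strand): cagGCaagt
SNX22 exon 5 (chr15:64445881-64445889, plus strand): cagGCaagt
VPS9D1-AS1 exon 3 (chr16:89783310-89783318, plus strand): aagGCaggc
SNX2 exon 13 (chr5:122163152-122163160, plus strand): gagGCatgt
VPS13A exon 66 (chr9:79985849-79985857, plus strand): aagGCaagt
VPS52 exon 10 (chr6:33235453-33235461, minus strand): aagATatcc
VPS52 exon 11 (chr6:33235096-33235118, minus strand): ctgactctgacccatcttACgat
A GC in place of GT followed 6 of these exons, or 1.30% of the 461, beside 0.95% of all listed exons. Such sites are a known minor form of the 5′ splice site. Their scores, low because GC sites were left out of the frequencies, ran from -10.63 in VPS9D1-AS1 to -6.55 in SNX1 and SNX22, whose 9 bases were identical. VPS9D1-AS1 is antisense to VPS9D1, and whether the libraries kept strand was not given in the sources used here, so its 4 events and the 3 of VPS9D1 are uncertain.

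VPS52, a subunit of the GARP and EARP tethering complexes, had the remaining 2. Its exons 10 (58 bases) and 11 (134 bases) are neighbours, so that the AT after the one and the AC before the other are the ends of a single intron of 360 bases. Its first 12 bases, with 8 in capitals, and its last 30, with the final 2 in capitals, are shown because introns with these ends are a known class cut by the minor spliceosome.
VPS52 intron 10 start (chr6:33235447-33235458, minus strand): ATATCCTAgtac
VPS52 intron 10 end (chr6:33235099-33235128, minus strand): attgttttccctgactctgacccatcttAC
Among 187880 introns of canonical protein-coding transcripts, 197 (0.105%) started with ATATCC and 171 (0.0910%) also ended in AC. The listed endosomal genes had 2 of these, this one and intron 1 of VPS11. GTATCC, the other start searched, on the transcribed strand only, opened 636 introns (0.339%), 5 of them in VPS13D, VPS25, VPS16 and VPS52. Together 7 of 1055 introns in the endosomal genes (0.664%) had either start, beside 0.443% of all. Exons on both sides were listed as skipped only at intron 10 of VPS52. Each of its 2 exons had 1 event, and the skipping junction was annotated for exon 10 alone. A shared start is a match of letters and does not show which spliceosome cuts the intron.

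Low 3′ scores were also seen at sites with AG. The 4 sites below were chosen after their values were seen, 2 low and 2 high, and give 20 intron and 3 exon bases with the AG in capitals, to show what the score reads.
CHMP4A exon 3 (chr14:24680796-24680818, minus strand): cagggtatgggctgggtcAGctg
SNX5 exon 2 (chr20:17937679-17937701, minus strand): acgcaaaaaatgtatttcAGctg
SNX5 exon 7 (chr20:17931038-17931060, minus strand): tctttttttcttccttctAGgag
STAM exon 5 (chr10:17730006-17730028, plus strand): tttctttttctattttacAGggt
Their 3′ scores were -4.43, -0.31, 16.96 and 16.87. Of the 18 bases before the AG, 7 and 8 were pyrimidines in the low pair and 18 and 16 in the high pair. They had 1, 5, 1 and 1 events in the order shown. SNX5 exon 2 joined its weak 3′ site to a 5′ site with a score of 12.55.

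Most listed skipping junctions were not in the annotation. Of 729 events, 131 (17.97%) had a junction from upstream to downstream partner that was an annotated intron, beside 17.95% of all events in the table. Against introns of protein-coding transcripts alone, the shares were 9.60% and 11.6%. Counted by exon, 117 of 461 (25.4%) had at least 1 such junction, beside 25.9%. SNX14, which acts at contacts of the endoplasmic reticulum with lipid droplets, had them for 11 of its 12 exons, VPS45 for 7 of 14, SNX17 for 6 of 12 and VPS53 for 6 of 13. In contrast, SNX29 and SNX9, with 11 exons each, had none, and VPS36 and VPS28, with 9 and 8, also had none.

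How far each junction reached was counted as the number of canonical exons between its 2 partner exons. It was exactly 1 in 366 of 729 events (50.2%, beside 45.4% of all) and 2 or more in 346 (47.5%, beside 52.1%). No canonical exon lay between the partners in 17. Of the 131 events with an annotated junction, 33 (25.2%) passed over 2 or more exons, and of the 598 without one, 313 (52.3%) did. The same shares over all events were 27.9% and 57.3%, so longer reach in junctions without annotation was common to the whole table. The longest reach was 10 exons in SNX5, with 2 events on the same junction of 25178 bases. After it came 9 exons in SNX5, and 8 in SNX14 and in STAM.

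Leaving out an exon keeps the reading frame when its length is a multiple of 3. That held for 175 of 461 exons (38.0%), beside 38.8% of all listed exons. On the canonical transcripts, 163 of the 426 exons that could be classed (38.3%, beside 39.0% of 54753 over the table) kept the frame and 263 shifted it. A further 5 held the start codon, 27 were not in the canonical transcript and 3 lay in transcripts with no reading frame. Exons that kept the frame removed from 9 codons to 91 codons, with a median of 35. The largest was exon 9 of 19 of SNX25, with 273 bases. The canonical transcript of VPS11 has no open frame to its annotated stop on the GRCh37 sequence, so its 8 shifted exons were left out of the next count. Of the 255 others that shifted it, 223 (87.5%, beside 86.3% of 33167 over the table) brought a first stop codon more than 50 bases before the last exon junction, the position at which nonsense-mediated decay is known to act. These outcomes are read from the annotation and no protein or decay was measured. Where the junction passed over 2 or more canonical exons and joined canonical ends, the summed length was a multiple of 3 in 148 of 340 events (43.5%), beside 39.9% of all such events. For 1 exon it was 137 of 355 (38.6%), beside 39.7%. Events on the same junction have the same summed length and were each counted, so these are not shares of distinct junctions.

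Each gene was next read by how much of it was listed. Of 991 internal exons in the canonical transcripts of the 71 genes, 433 (43.7%) were listed as skipped, beside 48.5% of 121908 over the 10988 genes of the table whose canonical transcript has an internal exon. The median over genes was 57.9%, beside 57.1%, and the mean over genes 57.0%, beside 57.2%. All internal exons were listed in 8 genes (11.3%, beside 15.8%), which were SNX3, SNX5, SNX12, VPS28, VPS29, VPS37B, VPS72 and VPS9D1-AS1. The pooled share lay below the median over genes in the whole table too (48.5% and 57.1%). In the endosomal genes this gap lay largely with the VPS13 genes, whose canonical transcripts have the most exons. They had 41 of 281 internal exons listed (14.6%), and the other genes together had 55.2% of 710.

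**Figure D3:**
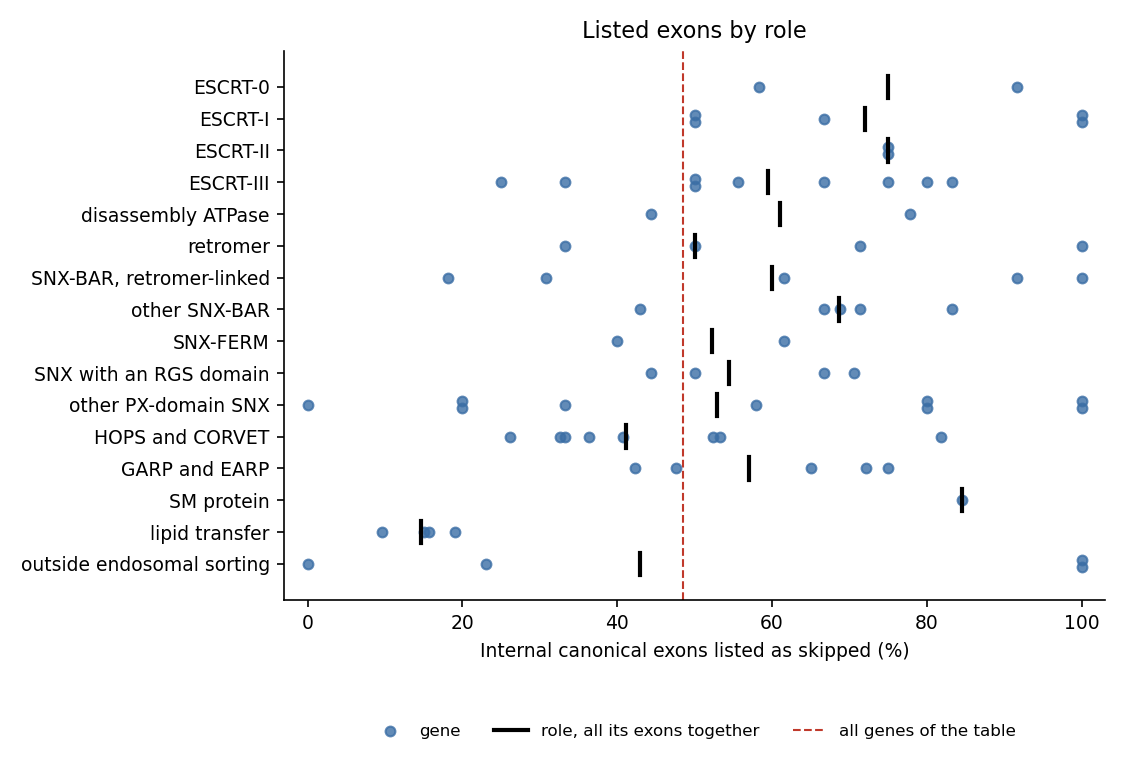
Share of internal canonical exons listed as skipped (x axis, %) for each of the 71 genes (points) by role (rows), with a bar for all exons of a role together and a dashed line at 48.5%, the share over the 10988 genes of the table with an internal canonical exon. The lipid transfer genes lie between 9.6% and 19.1%, and VPS45 stands at 84.6%.

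In ESCRT-0 the listing was dense in STAM, but in STAM2 it was close to the median over genes of the table (57.1%). STAM, which binds ubiquitin-marked cargo with HRS, had 11 of 12 internal exons listed with 20 events, and its relative STAM2 had 7 of 12 with 11 events. Of their 18 exons only 2 kept the frame (11.1%, beside 38.8% of all listed exons), the lowest share of any role over the symbols of the rule. HGS, which encodes HRS and lies outside the rule, had a length that is a multiple of 3 in 7 of 15 exons. The 2 frame-keeping exons of the ESCRT-0 genes of the rule were both in STAM. Exon 4 (96 bases, chr10:17726831-17726926) had 3 events and removed 32 codons, and exon 5 (147 bases, chr10:17730026-17730172) had 1 event and removed 49.

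In ESCRT-I, VPS28, a core subunit, had all 8 internal exons listed with 12 events, none with an annotated skipping junction. Its role as a whole had 18 of 25 internal exons listed (72.0%). In ESCRT-II, 12 of 16 were listed, 9 of them in VPS36, the subunit that binds ubiquitin and lipid. VPS36 had 17 events, and 6 of its 9 exons kept the frame, beside 39.0% of all exons that could be classed.

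The ESCRT-III genes had 26 exons in 9 genes, of which 10 had a length that is a multiple of 3 (38.5%). CHMP1A, CHMP5 and CHMP7 had 5 exons each, with 9, 7 and 7 events. The frame-keeping exons with the most events were exon 3 of CHMP1A (78 bases, chr16:89717977-89718054) with 3, and with 2 each exon 4 of CHMP1A (147 bases), exon 2 of CHMP4A (150 bases) and exon 4 of CHMP7 (186 bases). CHMP4B, of the subunit type that forms the main filament, had 1 exon listed and CHMP2B had 1. An exon of CHMP3 carried 2 gene symbols in the table, so its assignment is uncertain. VPS4B, one of the 2 ATPases that take the filament apart, had 7 of 9 internal exons listed with 15 events, and VPS4A had 4 of 9 with 4 events.

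Retromer had 19 exons and 28 events. VPS29 had the most, 7 exons with 12 events, although its canonical transcript has only 2 internal exons. Its 12-base exon shared its 3′ splice site with a listed exon of 90 bases, and a 192-base exon shared its 5′ splice site with one of 83. VPS35, the scaffold of the complex, had 5 of 15 internal exons listed, VPS26A 5 of 7 and VPS26B 2 of 4. Frame-keeping exons with 2 events were exon 3 of VPS26B (165 bases, chr11:134109885-134110049), which removed 55 codons, and exon 2 of VPS29 (192 bases, chr12:110933817-110934008), which removed 64. The 4 others in canonical transcripts, exons 5 and 7 of VPS26A and exons 13 and 16 of VPS35, had 1 event each. Outside the canonical transcript, the VPS29 exons of 12 and 90 bases also have a length that is a multiple of 3, with 3 events and 1.

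The sorting nexins with a membrane-curving BAR domain that work beside retromer had more events for their exons than any other role. SNX1, SNX2, SNX5, SNX6 and SNX32 had 110 events on 37 exons. SNX5 had 40 events and SNX6 had 38, the 2 highest counts of any endosomal gene. The exon with the most events was exon 11 of 14 of SNX6 (87 bases, chr14:35044962-35045048) with 8, and exon 9 of the same gene (76 bases) followed with 7. Over all exons of the table the highest count was 18, and the mean was 1.58 events an exon in the endosomal genes and 1.69 in all.

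Related genes with a similar exon plan can be set side by side. SNX5, SNX6 and SNX32 share most internal exon lengths, and so do SNX1 and SNX2, which pair with them. SNX5 had 11 of 11 internal exons listed and SNX6 11 of 12, but SNX32 had 2 of 11. SNX1 had 8 of 13 and SNX2 4 of 13. Of the 11 exons of equal length in SNX5 and SNX6, 10 were listed in both. Of the 11 exons of equal length in SNX1 and SNX2, 1 was listed in both, 5 in SNX1 alone, 2 in SNX2 alone and 3 in neither. One such exon of each set is shown on GRCh37, with capitals where all the genes in the set hold the same base, to let the copies be compared.
SNX5 exon 9 (chr20:17929708-17929747, minus strand): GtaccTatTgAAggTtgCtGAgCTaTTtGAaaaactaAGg
SNX6 exon 10 (chr14:35050767-35050806, minus strand): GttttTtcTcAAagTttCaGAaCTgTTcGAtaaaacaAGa
SNX32 exon 9 (chr11:65619111-65619150, plus strand): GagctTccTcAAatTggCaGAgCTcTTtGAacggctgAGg
SNX1 exon 5 (chr15:64415702-64415745, plus strand): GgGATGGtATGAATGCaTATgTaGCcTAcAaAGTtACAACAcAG
SNX2 exon 5 (chr5:122137776-122137819, plus strand): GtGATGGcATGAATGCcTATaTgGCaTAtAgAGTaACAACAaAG
The 3 exons of 40 bases had 17 bases in common, and had 3 events in SNX5, 4 in SNX6 and 0 in SNX32. The 2 exons of 44 bases had 34 in common (77.3%), with 6 events in SNX1 and 0 in SNX2. This pair is not typical. It had the highest identity of all exon pairs compared, and the widest gap in events between SNX1 and SNX2. Identity in the exon pairs of SNX1 and SNX2 started at 59.7%. STAM and STAM2 offer a pair where both copies were listed, with 42 of 55 bases in common at exon 11 and 1 and 2 events.
STAM exon 11 (chr10:17746969-17747023, plus strand): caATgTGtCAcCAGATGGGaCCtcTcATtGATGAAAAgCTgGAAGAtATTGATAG
STAM2 exon 11 (chr2:152988628-152988682, minus strand): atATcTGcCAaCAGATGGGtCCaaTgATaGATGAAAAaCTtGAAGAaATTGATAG
Over 12 pairs of related genes, 71 exon pairs of equal length were matched in order, with SNX5, SNX6 and SNX32 entering as 3 pairs and CHMP4A entering with both CHMP4B and CHMP4C, so that some exons count more than once. Both exons were listed in 29 of them, 1 of the 2 in 35 and neither in 7. Whether these counts differ from those of unrelated exons was not tested.

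Other BAR-domain nexins had 36 exons in 5 genes, and 18 had a length that is a multiple of 3. All 6 exons of SNX7 had a length that is a multiple of 3. SNX9, which acts with dynamin in endocytosis, had 11 of 16 internal exons listed with 20 events, and 3 of these events, on a single junction of 51934 bases, passed over 6 exons. SNX4 had 10 of 12 listed.

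SNX17, a cargo adaptor with a FERM domain that works with retriever, had 12 exons and 25 events, 12 of the events with an annotated skipping junction. Exon 2 of SNX17 was listed in 3 forms with a common 3′ splice site, of 39, 75 and 200 bases, and exon 3 in 2 forms with a common 5′ splice site, of 118 and 142 bases. The 118-base form had 6 events. SNX27, the retromer-bound member of this class, had 4 exons with 4 events. Over all endosomal genes 19 exons shared an end with another listed exon (4.12%, beside 5.01% of all), and 5 of them were in SNX17 and 4 in VPS29.

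SNX13, SNX14 and SNX25, which combine a PX and an RGS domain, had 12 exons each, with 14, 15 and 16 events, and SNX19 had 6 with 6. In the remaining PX-domain nexins SNX29 had the most, 11 exons with 19 events, while SNX10, SNX21 and SNX24 had 2, 1 and 1 exons. Sequence related to SNX29 is also present in the pseudogene SNX29P1, which had 1 exon and 1 event, so these 2 are uncertain.

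Among the tethering complexes, VPS8, the subunit found in CORVET, had 15 exons, the most of any gene, but its canonical transcript has 46 internal exons, so that 32.6% were listed. VPS33A, the subunit of both HOPS and CORVET that handles fusion proteins, had 9 of 11 listed with 31 events, and its exons 7 and 8 had 6 events each. VPS39 and VPS41 of HOPS had 6 of 23 and 11 of 27. In the GARP and EARP genes, VPS52 and VPS53 had 13 exons each, with 13 and 17 events. VPS45, the partner of fusion proteins in endosomal transport, had 14 exons and 28 events. Of the 14 exons, 9 were a multiple of 3 in length (64.3%, beside 38.8% of all listed exons).

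The VPS13 genes, whose very long proteins move lipids between membranes, lay at the other end. VPS13D had 13 of 68 internal exons listed, VPS13A 11 of 70, VPS13B 9 of 60 and VPS13C 8 of 83. Nearly every listed VPS13 exon had a single event, 46 events on 43 exons.

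Some of the matched symbols are not sorting genes. VPS72, a subunit of chromatin remodelling complexes, had 4 exons and 12 events, and with VPS9D1, VPS9D1-AS1 and SNX29P1 made up 10 exons and 20 events.

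The other event types added 291 events. Mutually exclusive exons had 259 of 39869 (0.650%, beside 0.643% for skipped exons), with SNX5 at 36 and SNX6 at 27. Both exons were in the canonical transcript in 236 of the 259 (91.1%, beside 87.0% of all), and both were also listed as skipped in 254 (98.1%, beside 98.3%). Alternative 5′ splice sites gave 22 events of 2620 (0.840%) in 15 genes, with 5 in SNX17 and 3 in VPS52. The bases added by the longer form ran from 2 in VPS51 to 2014 in SNX19. With repeated pairs of sites counted once they were a multiple of 3 in 9 of 20 pairs, beside 43.9% of all pairs. The VPS29 pair of 12 and 90 bases appeared here too, 78 bases apart. Alternative 3′ splice sites gave 8 of 2868 (0.279%), and 5 of their 7 distinct pairs differed by a multiple of 3, beside 58.7% of all pairs. Retained introns gave 2 of 677, of 118 bases in VPS28 and 1252 bases in SNX21.

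The wider pathway outside the rule was searched with 34 symbols, of which 6 are second names of genes in the same list. Of the 28 genes, 27 were found. WASHC1 was not found under that symbol, and its older symbol WASH1, searched later and left out of the sums, had 6 events on 4 exons. The 27 genes had 341 events on 212 exons, of which 94 (44.3%, beside 38.8% of all listed exons) had a length that is a multiple of 3. Without FAM21A and FAM21C it was 72 of 183 exons (39.3%). HGS, which encodes the ESCRT-0 partner of STAM, had 28 events on 15 exons and TSG101 of ESCRT-I had 12 on 6. BECN1 had 33 on 10. Members of the WASH complex were listed under older symbols. FAM21C had 23 events and FAM21A 22, but these are near-identical copies between which reads can be split, so both counts are uncertain.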

How the data were processed

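Per the submitters' processing notes, the authors used STAR 2.5.1 and the build hg19 (GRCh37). They deposited 5 rMATS tables of splicing events pooled over 2 libraries. Exon coordinates and effective lengths were used as the deposited tables give them. The 30 columns of reads and inclusion levels by library carry no condition and were not used, so depth and counting error are not given. The 15 columns of the authors' own comparison hold p-values, false discovery rates and inclusion level differences and were not used. Distinct exons were unique in chromosome, strand, start and end. Annotation was GENCODE release 44 on GRCh37, with its canonical transcripts. Splice site scores used base frequencies at 300873 annotated 5′ sites with GT and 300290 annotated 3′ sites with AG, with a pseudocount of 0.5. Related exons were matched in order by equal length with at least 40% identical bases. Genes were named by role, by most exons, and by extreme length, event count or splice site. The members and lists were chosen with earlier results of these data known. No test was made, because exons are not replicates and each condition has 1 library. Alternatives with an interval covered the multiple-of-3, AG and GT, coding, annotated-junction (by event), frame and listed-exon shares. They also covered the median exon and intron lengths and the mean scores, and no other value. With no interval, the ESCRT-I scores were also given without VPS28, and the wider pathway's multiple-of-3 share without FAM21A and FAM21C. Repeated pairs of alternative splice sites were counted once, also with no interval. Code ran in Python 3.11.15 with pandas 2.3.3, numpy 2.4.6 and pysam 0.24.0, and was checked on simulated data.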

Additional observations from a re-analysis of the deposited data

How the results depend on the processing

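Alternatives were compared with a 95% interval around each value (Wilson for shares, order statistics for medians, the standard error for mean scores). Of 46 recomputed values, 39 lay inside it and 7 did not. The intervals treat exons or events as independent, although many lie in the same gene. Several alternatives kept nearly all of the same exons, so their values could hardly leave the interval. Counting every event once moved the median upstream intron to 3657 bases and the downstream one to 2612, since events with distant partners then enter. The downstream median of all exons was then 2694, so that the order of these medians turned. Taking 1 value a gene moved the share of events with an annotated skipping junction to 21.7% (24.6% over all genes) and that of coding exons to 95.4% (90.9%). It also turned the order of the mean 3′ scores, to 8.98 beside 9.04. Protein-coding transcripts alone gave 9.60% of events with an annotated skipping junction, beside 11.6% of all, since fewer introns can match. For the share of internal exons listed, alternatives chosen after seeing the data gave 55.2% without the VPS13 genes and 57.0% as a mean over genes, beside 57.2% for all. No paired analysis was possible because there was only 1 library per treatment. Reads and inclusion levels for each library were not run, so differences between the conditions are not described.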
